A study of Brassica rapa with 8 samples.

Results

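RNA of whole *B. rapa* seedlings treated with IPA-Ala was compared with RNA of untreated control seedlings. IPA-Ala is indole-3-propionyl-L-alanine, the auxin indole-3-propionic acid bound to the amino acid alanine. The comparison holds 4 of the 8 libraries of the series, the 2 whose treatment label is IPA-Ala and the 2 labelled as control without treatment. It is described across all genes and, in depth, for the 42 genes of auxin metabolism and auxin response that the study names with an identifier, out of 46250 genes listed.

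Auxin steers cell division and cell elongation in plants, and seedlings respond to it strongly in the root. Amino acid conjugates such as IPA-Ala are regarded as storage forms, from which amidohydrolases release the free auxin. In *Arabidopsis thaliana*, auxin leads to the degradation of the Aux/IAA repressors, after which the early response genes, among them *Aux/IAA*, *SAUR* and *GH3* genes, are transcribed.

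All seedlings were Chinese cabbage of the cultivar Cantonner Witkrop (*B. rapa* ssp. *pekinensis*). At 1 day of age they were placed on 1% agar, either without hormone or with 0.01 mM IPA-Ala, and kept at 22 °C in continuous light for 24 h according to the treatment protocol, whereas the sample titles state 3 h. RNA came from 100 mg of whole seedlings, so that fewer cells of a type and less RNA per cell cannot be told apart. The study calls the 2 libraries of a group biological replicates, and 2 further groups received IAA-Ala or IBA-Ala at the same dose.

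The counts on genes were 17552936 and 16616214 in control replicates 1 and 2, and 17323293 and 17275387 in IPA-Ala replicates 1 and 2. The control replicates lay further apart than the IPA-Ala replicates, at a root mean square difference of 0.703 against 0.55 in log2 CPM (counts relative to the scaled depth of the library) over all genes tested. Control replicate 1 was nearer to IPA-Ala replicates 1 and 2 (0.688 and 0.656) than to control replicate 2. Control replicate 2 lay at 0.748 and 0.809 from them. The deposited tables name genes by identifier only, so the tissue could not be checked against marker genes.

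The genes that differed significantly after IPA-Ala mainly had higher transcript levels. Of 26827 genes tested, 131 were differentially expressed (DEGs), which is 0.488%. A DEG had a Benjamini-Hochberg adjusted p below 0.01 in the quasi-likelihood test of edgeR. Transcripts of 124 DEGs (0.462%) rose and those of 7 (0.0261%) fell. With an adjusted p below 0.05 there were 336 genes (1.25%), of which 311 (1.16%) were higher and 25 (0.0932%) lower. The median log2 fold change of all genes tested was -0.02, and the 5% and 95% quantiles were -0.77 and 0.98.

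In the control, the DEGs that rose had a median level of 7.82 CPM, beside 10.6 CPM for all genes tested, and after IPA-Ala of 49.6 CPM. In the control, 54 of the 124 lay above 10 CPM and 16 (12.9%, beside 7.79% of all genes tested) below 1 CPM. The log2 fold changes ranged from 1.75 to 5.51 with a median of 2.68, and 113 of them were at least 2. In every one the lower IPA-Ala library lay above the higher control library, by at least 1.57 and by a median of 2.27 on the log2 scale. The DEGs were called from these same libraries, so this separation follows largely from the choice. Groups that do not overlap are no rarity with 2 against 2 libraries, since the IPA-Ala libraries lay above both controls in 18.9% of all genes tested and below both in 18%, together 37%.

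Together, the 124 genes held 0.211% and 0.182% of the counts on genes in the control libraries and 1.22% in each IPA-Ala library. The 7 DEGs that fell held 0.0232% and 0.029% in the control and 0.00491% and 0.00501% after IPA-Ala. These shares describe genes chosen by the same libraries and are no separate test. The share of DEGs differed with the level of the gene, at 0.0447% in the quartile of genes with the lowest mean level and 0.895% in the quartile with the highest. By the chromosome in the identifier, it lay between 0.24% (A05) and 0.724% (A07).

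**Figure D1:**
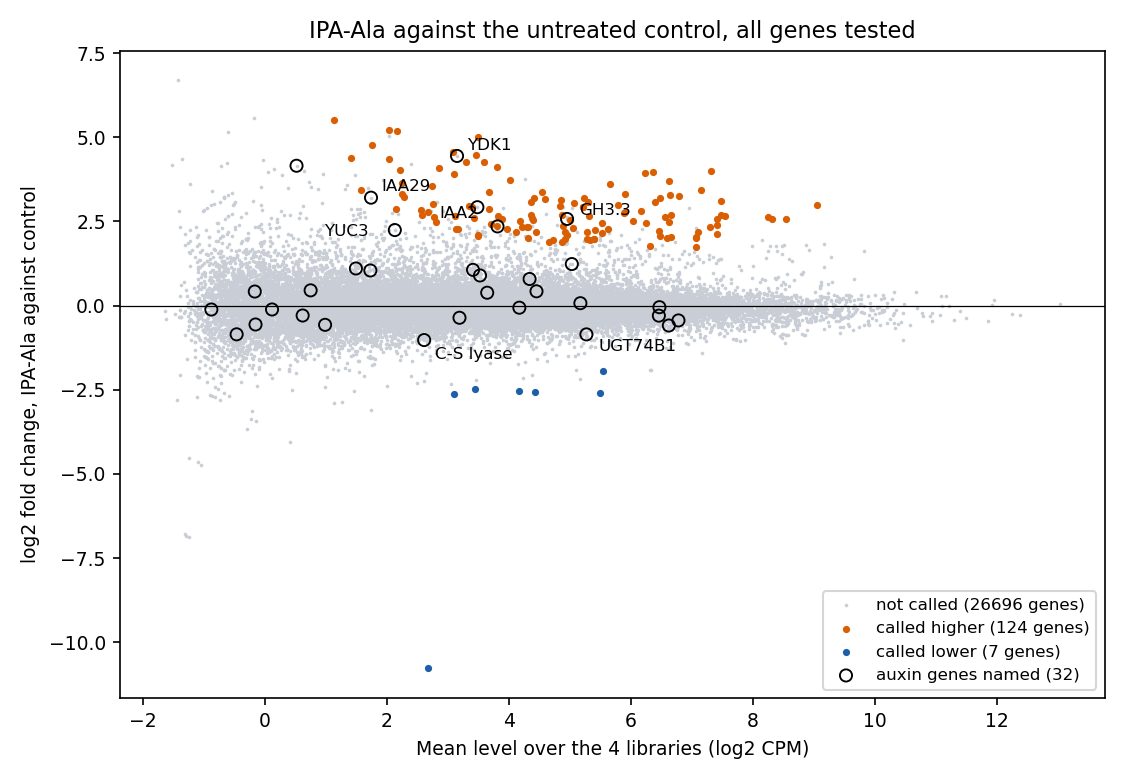
Log2 fold change of IPA-Ala against the control (vertical axis) by mean level in the 4 libraries (horizontal axis, log2 CPM) for the 26827 genes tested, with the DEGs and the named auxin genes marked by colour. The DEGs that rose (124) outnumber those that fell (7), and *IAA2* is the auxin gene among them.

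The number of DEGs depended on single libraries. It was 251 without control replicate 1, 239 without control replicate 2 and 86 without IPA-Ala replicate 2, against 164 without IPA-Ala replicate 1. Of the 131 genes, 127, 131, 69 and 107, respectively, were again DEGs. In these fits the lone library is assumed to vary like the other group. With DESeq2, the tool of the study, 416 genes (1.6% of those with an adjusted p) passed the threshold, 130 of them shared with the 131. With 2 against 2 libraries, an exact two-sided permutation test of a single gene cannot give a p below 0.333, so each p comes from the model across all genes.

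The 2 largest rises among the DEGs belonged to genes that were hardly transcribed in the control. Both were picked for their fold change, which favours genes with few control counts. They passed the filter on low counts through the IPA-Ala libraries, so the low control level follows in part from the choice. BraA09g052300.3C had 0.165 and 0 CPM in the control libraries and 5.16 and 3.5 CPM in the IPA-Ala libraries. Its counts were 3 in all controls and 88 and 62 after IPA-Ala, a ratio of 48.8 with a counting interval (95%) of 16.4 to 239. The log2 fold change was 5.51 (SE 0.82, edgeR adjusted p = 0.00769), and it was 9.19 without control replicate 1, where the controls left had no count.

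BraA07g016090.3C had 0.275 and 0.127 CPM in the control and 7.38 and 8.51 CPM after IPA-Ala. Both IPA-Ala libraries lay far above both controls, with a log2 fold change of 5.23 (SE 0.55, edgeR adjusted p = 0.00377).

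Among the DEGs that fell, BraA02g001260.3C had 250 and 185 counts in the control libraries and 0 in both IPA-Ala libraries. It passed the filter on low counts through the control libraries. Taking 3 counts per library as the limit that a count of 0 allows, its transcript was at least 73.9-fold lower (edgeR adjusted p = 0.00188). This gene had 0 and 0.0537 CPM after IAA-Ala and no count in either IBA-Ala library, so that of the 8 libraries only the controls had more than a trace of it. BraA09g004340.3C had 15.5 and 14.1 CPM in the control and 1.99 and 2.82 CPM after IPA-Ala, a log2 fold change of -2.62 (SE 0.34, edgeR adjusted p = 0.0063). Without IPA-Ala replicate 1 or 2 its adjusted p was 0.0205 and 0.0217, above the threshold. The names of these 4 genes are not known here.

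The 42 auxin genes were then examined. The study chose 12 of them, among these all 6 early response genes, as DEGs of one or more of the conjugates in these same samples, so their number and direction are not independent evidence. The filter on low counts passed 32, and the 10 others are described below by their counts. Of the 32, *IAA2* was a DEG, against the 0.488% of all genes. A further 5 genes had an adjusted p between 0.01 and 0.05, namely *IAA29*, *YDK1*, *YUC3* and 2 *SAUR*-like genes, all with higher values after IPA-Ala. With *IAA2*, 6 of the 32 thus had an adjusted p below 0.05, beside 1.25% of all genes (1.16% higher). Before adjustment, 15 of the 32 had a p below 0.05, beside 8.6% of all genes. Values were higher in 13 of these 15 (5.58% of all genes) and lower in *C-S lyase* and *UGT74B1* (3.03%). The median log2 fold change of the 32 was 0.4, beside -0.02 for all genes tested. DESeq2 called 7 of the auxin genes at 0.01, *IAA2*, *IAA29*, *GH3.3*, *YUC3* and the *SAUR*-like genes BraA01g003500.3C, BraA01g003520.3C and BraA07g029140.3C, where it called 1.6% of all genes.

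**Figure D2:**
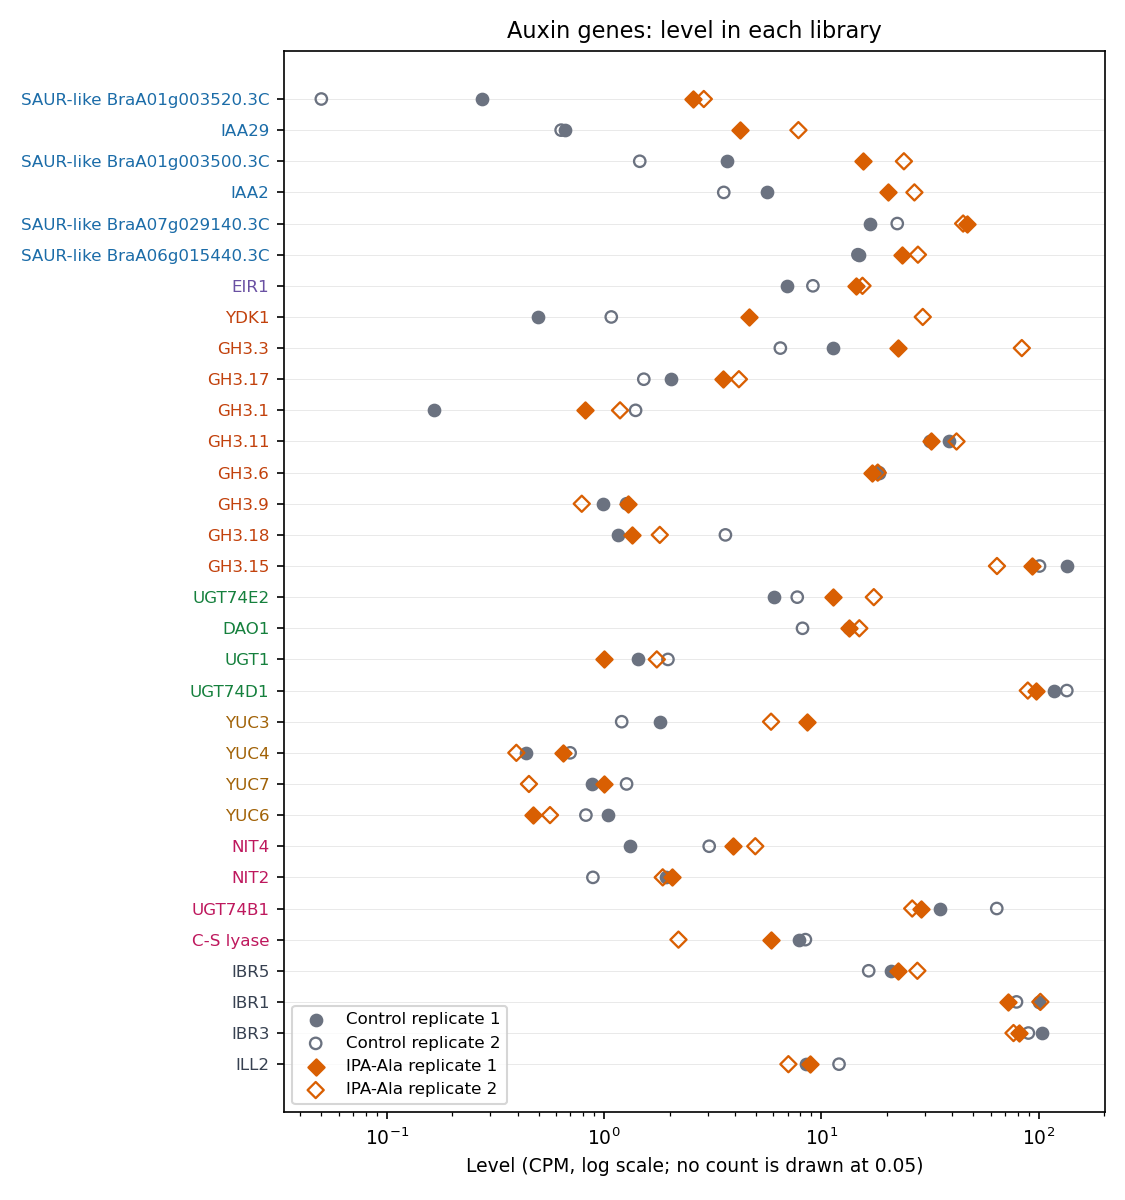
Level of the 32 auxin genes tested in each library (CPM, log scale; a library without counts is drawn at 0.05), with filled and open symbols for replicates 1 and 2 and gene names coloured by role. The early response genes at the top, chosen by the study as DEGs, have both IPA-Ala libraries to the right of both controls, and *YDK1* and *GH3.3* have IPA-Ala replicate 2 far to the right of replicate 1.

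All 6 early auxin response genes were chosen by the study as DEGs of one or more of the conjugates in these samples, so the following count and median describe that choice and are no evidence of a direction. In 6 of 6 both IPA-Ala libraries lay above both controls (18.9% of all genes), and the median log2 fold change was 2.64. *IAA2* encodes an Aux/IAA protein, a repressor of auxin-dependent transcription. It had 5.6 and 3.55 CPM in the control and 20.2 and 26.8 CPM after IPA-Ala. Both treated libraries were thus several times above the controls, with a log2 fold change of 2.35 (SE 0.34, 95% interval 1.6 to 3.1, edgeR adjusted p = 0.00896). This value was close to the threshold, and without IPA-Ala replicate 2 the log2 fold change was 2.14 with an adjusted p of 0.0507.

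*IAA29*, a second repressor of the same family, had 0.659 and 0.634 CPM in the control and 4.22 and 7.84 CPM after IPA-Ala. The control replicates were nearly equal, and the treated ones stood apart from them and from each other. The log2 fold change was 3.21 (SE 0.52), which did not pass the threshold of 0.01 (edgeR adjusted p = 0.0165). Without IPA-Ala replicate 1 it did (log2 fold change 3.59, adjusted p = 0.00123), and without IPA-Ala replicate 2 the adjusted p was 0.137.

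The *SAUR*-like genes belong to the small auxin up RNA family, whose members promote cell expansion in *Arabidopsis*. BraA01g003500.3C had 3.68 and 1.46 CPM in the control and 15.6 and 24 CPM after IPA-Ala (log2 fold change 2.92, SE 0.44, edgeR adjusted p = 0.0112). It passed the threshold without control replicate 1 (adjusted p = 0.00128), control replicate 2 (0.00649) or IPA-Ala replicate 1 (0.000284), but not without IPA-Ala replicate 2 (0.0387). BraA01g003520.3C, close to it in the order of identifiers, was nearly silent in the control with 5 and 0 counts, against 44 and 51 after IPA-Ala. These counts correspond to 0.275 and 0 CPM and to 2.58 and 2.88 CPM. The gene passed the filter on low counts through its IPA-Ala libraries. The ratio was 18.5 (95% counting interval 7.67 to 58.4), and the log2 fold change of 4.15 (SE 0.82, edgeR adjusted p = 0.0358) ranged from 3.28 to 8.53 when single libraries were left out, the highest without control replicate 1.

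The other *SAUR*-like genes had smaller differences. BraA07g029140.3C had 16.7 and 22.3 CPM in the control and 46.8 and 44.9 CPM after IPA-Ala, a log2 fold change of 1.23 (SE 0.27, edgeR adjusted p = 0.0654). BraA06g015440.3C had 14.9 and 14.7 CPM and 23.4 and 27.8 CPM, a log2 fold change of 0.79 (SE 0.26, edgeR adjusted p = 0.327). In neither gene did the groups overlap, and neither passed the threshold.

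*EIR1*, known as *PIN2* in *Arabidopsis*, encodes an auxin efflux carrier of the root tip. It had 6.98 and 9.14 CPM in the control and 14.5 and 15.4 CPM after IPA-Ala. The treated libraries were close to each other and above both controls, but the log2 fold change of 0.9 (SE 0.3) was not significant (edgeR adjusted p = 0.323).

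The *GH3* genes encode acyl acid amido synthetases, several of which bind auxin to amino acids. Of 12 named genes, 9 were tested. Their median log2 fold change was 0.07, beside -0.02 for all genes, and none was a DEG with edgeR. *YDK1* (*GH3.2*), an IAA-amido synthetase in *Arabidopsis*, had 0.495 and 1.08 CPM in the control and 4.63 and 29.3 CPM after IPA-Ala. The treated libraries differed from each other more than the lower of them differed from the higher control. The log2 fold change was 4.45 (SE 0.84, edgeR adjusted p = 0.034), with 5.24 without IPA-Ala replicate 1 (adjusted p = 7.1e-07) and 2.57 without IPA-Ala replicate 2 (adjusted p = 0.15).

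*GH3.3*, an enzyme of the same activity in *Arabidopsis*, had 11.3 and 6.47 CPM in the control and 22.4 and 83.6 CPM after IPA-Ala. IPA-Ala replicate 2 was again far above replicate 1, which itself lay above both controls. The log2 fold change of 2.57 (SE 0.55, edgeR adjusted p = 0.0602) was 3.24 without IPA-Ala replicate 1 (adjusted p = 2.38e-05) and 1.34 without IPA-Ala replicate 2 (adjusted p = 0.519).

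*GH3.17*, which conjugates IAA to glutamate in *Arabidopsis*, had 2.03 and 1.52 CPM in the control and 3.52 and 4.17 CPM after IPA-Ala, a log2 fold change of 1.1 (SE 0.42, edgeR adjusted p = 0.443). *GH3.15*, which prefers indole butyric acid in *Arabidopsis*, had values in the opposite direction, 135 and 101 CPM in the control and 92.7 and 64.2 CPM after IPA-Ala (log2 fold change -0.59, SE 0.29, edgeR adjusted p = 0.634). In both genes the groups did not overlap, and neither difference was significant.

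The remaining *GH3* genes differed little. *GH3.6*, an auxin-amido synthetase in *Arabidopsis*, had 18.4 CPM in both control libraries and 17 and 18.2 CPM after IPA-Ala (log2 fold change -0.06, 95% interval -0.64 to 0.52). *GH3.11*, named *JAR1* in *Arabidopsis* where it conjugates jasmonic acid to isoleucine, had 38.5 and 31.7 CPM and 31.9 and 41.8 CPM (log2 fold change 0.07, 95% interval -0.52 to 0.66). For *GH3.1*, *GH3.9* and *GH3.18* the groups overlapped, and their log2 fold changes of 0.42, -0.12 and -0.57 had standard errors of 0.82, 0.58 and 0.59. Their counts per library lay between 3 and 57. The 95% interval of *GH3.1*, from -1.41 to 2.25, left a wide range of changes not detectable with these libraries. Its control replicates were far apart, at 0.165 and 1.4 CPM. *GH3.8* and *GH3.12* had no count in any of the 4 libraries, and BraA08g026630.3C, a GH3 family protein, had 1 and 2 counts in the control and 0 and 8 after IPA-Ala.

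**Figure D3:**
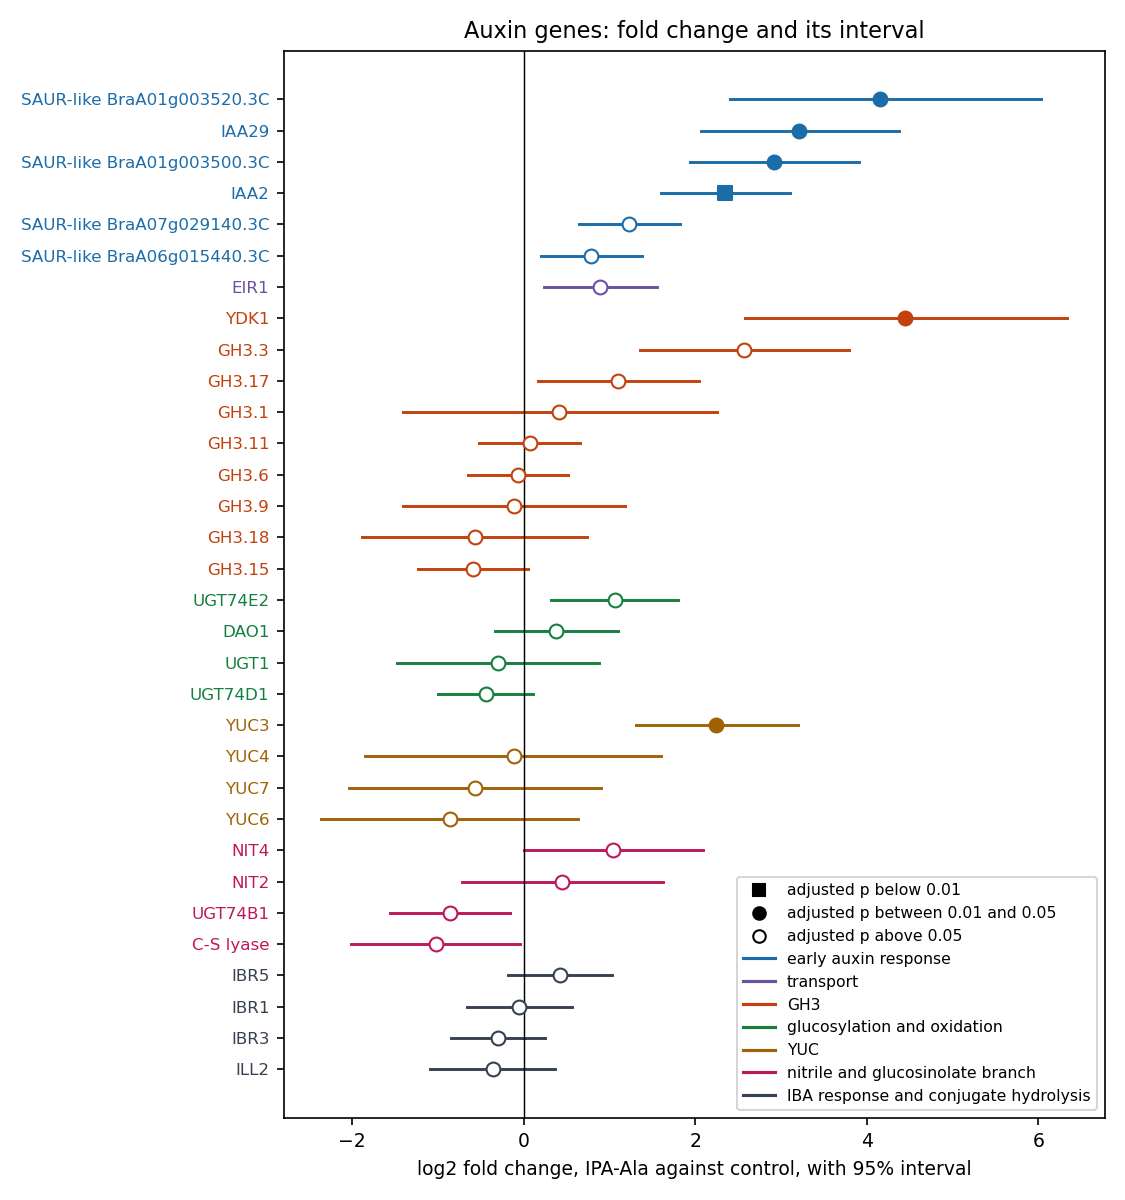
Log2 fold change of IPA-Ala against the control with its 95% interval for the 32 auxin genes tested, ordered and coloured by role. The intervals of the 6 early response genes lie above 0, as do those of *YDK1*, *GH3.3*, *GH3.17*, *YUC3*, *EIR1*, *UGT74E2* and, barely, *NIT4*. Those of *C-S lyase* and *UGT74B1* lie below 0, and those of the other genes include 0.

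The *YUC* genes encode flavin monooxygenases that convert indole-3-pyruvic acid into IAA. Only 4 of the 10 named genes were tested, with a median log2 fold change of -0.34. *YUC3* had 1.81 and 1.21 CPM in the control and 8.61 and 5.86 CPM after IPA-Ala. The groups were well separated, with a log2 fold change of 2.24 (SE 0.42, edgeR adjusted p = 0.0331). It lay between 1.95 and 2.58 when single libraries were left out.

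The other *YUC* genes had 20 counts or fewer in each library. *YUC6* had 1.04 and 0.825 CPM in the control and 0.469 and 0.564 CPM after IPA-Ala (log2 fold change -0.85, SE 0.67, edgeR adjusted p = 0.84). *YUC4* (log2 fold change -0.12, SE 0.77) and *YUC7* (-0.56, SE 0.66) overlapped between the groups, and *YUC7* had -1.22 without IPA-Ala replicate 1 and -0.1 without IPA-Ala replicate 2. *YUC5* had 16 and 8 counts in the control and 10 and 2 after IPA-Ala, and *YUC8* 5 and 2 counts against 1 and 0. *YUC9* had 2 counts in control replicate 2 only, and BraA01g005540.3C, a further *YUC* gene, had 4 and 0 counts and 7 and 0 counts. *YUC10* and *YUC11* had no count. A library with no count allows up to 3 counts, between 0.171 and 0.181 CPM before scaling, counting error only.

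Of the 4 genes of the nitrile and glucosinolate branch, 3 had an unadjusted p below 0.05, beside 8.6% of all genes. Their directions differed, and none was a DEG. *C-S lyase*, among these 3, was chosen by the study as a DEG after IBA-Ala, so the count is not independent evidence. *C-S lyase*, which acts in the synthesis of glucosinolates, had 7.91 and 8.44 CPM in the control and 5.86 and 2.2 CPM after IPA-Ala. The controls were close to each other, and the treated libraries were lower to an unequal extent (log2 fold change -1.02, SE 0.44, edgeR adjusted p = 0.544), with -1.88 without IPA-Ala replicate 1 and -0.48 without IPA-Ala replicate 2. *UGT74B1*, a glucosyltransferase of the same pathway, had 35.2 and 64.1 CPM in the control and 28.7 and 26.2 CPM after IPA-Ala. Here the controls were unequal and the treated libraries alike (log2 fold change -0.86, SE 0.31, edgeR adjusted p = 0.406), with -0.36 without control replicate 2 and -1.22 without control replicate 1.

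*NIT4* encodes a nitrilase, which in *Arabidopsis* acts on cyanoalanine. It had 1.32 and 3.04 CPM in the control and 3.92 and 4.96 CPM after IPA-Ala (log2 fold change 1.04, SE 0.47, edgeR adjusted p = 0.578), with 0.55 without control replicate 1 and 1.75 without control replicate 2. *NIT2*, a nitrilase able to form IAA from its nitrile, had 1.92 and 0.888 CPM and 2.05 and 1.86 CPM (log2 fold change 0.45, SE 0.52). Control replicate 2 was the lowest library of *NIT2*, and the log2 fold change was 0.025 without it and 1.13 without control replicate 1.

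Genes of auxin glucosylation and oxidation had a median log2 fold change of 0.04 over the 4 tested. *UGT74E2*, a glucosyltransferase that acts on indole butyric acid in *Arabidopsis*, had 6.04 and 7.74 CPM in the control and 11.3 and 17.4 CPM after IPA-Ala. Both treated libraries were above both controls, with a log2 fold change of 1.06 (SE 0.33, unadjusted p = 0.00963) that did not remain significant after adjustment (edgeR adjusted p = 0.275). *UGT74D1*, an auxin glucosyltransferase, had 118 and 135 CPM in the control and 97.1 and 89 CPM after IPA-Ala (log2 fold change -0.44, SE 0.25, edgeR adjusted p = 0.723).

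*DAO1* encodes a dioxygenase that oxidises IAA. It had 13.5 and 8.18 CPM in the control and 13.4 and 14.9 CPM after IPA-Ala, overlapping values with a log2 fold change of 0.38 (95% interval -0.33 to 1.1). *UGT1* had a log2 fold change of -0.29 (95% interval -1.47 to 0.88), and *UGT84B1* had no count in the 4 libraries.

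No gene of indole butyric acid response and conjugate hydrolysis had an unadjusted p below 0.05, and the median log2 fold change of the 4 was -0.17. *ILL2* encodes an amidohydrolase that in *Arabidopsis* cleaves IAA-Ala. It had 8.46 and 12.1 CPM in the control and 8.9 and 7.05 CPM after IPA-Ala. The groups overlapped, with a log2 fold change of -0.36 (95% interval -1.09 to 0.36).

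*IBR1* and *IBR3* take part in the peroxisomal conversion of indole butyric acid to IAA. *IBR1* had 101 and 79 CPM in the control and 72.1 and 102 CPM after IPA-Ala (log2 fold change -0.05, 95% interval -0.66 to 0.57). *IBR3* had 104 and 89.6 CPM and 81 and 76.5 CPM (-0.3, 95% interval -0.85 to 0.25). *IBR5*, a phosphatase in *Arabidopsis*, had 20.8 and 16.5 CPM and 22.5 and 27.6 CPM (0.42, 95% interval -0.18 to 1.03). The intervals of *IBR1* and *IBR3* exclude a log2 fold change of 1 in either direction. That of *ILL2* excludes a rise of this size but includes a fall of it, and that of *IBR5* just includes the rise.

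The IPA-Ala replicates were compared with each other over the auxin genes. Replicate 2 was the higher one in 20 of the 32 tested. Among the 13 genes with an unadjusted p below 0.05 and higher values, replicate 2 was the higher one in 11, and among the 6 early response genes in 5, both of them subsets picked from these same libraries. Among the 124 DEGs that rose, it was the higher one in 53, and among all genes tested in 13430 of 26827. The log2 fold changes of *YDK1* and *GH3.3* were 5.24 and 3.24 without IPA-Ala replicate 1, and 2.57 and 1.34 without IPA-Ala replicate 2. In *YUC3*, where replicate 1 was the higher one, the value was 1.95 without replicate 1 and 2.5 without replicate 2. The study had chosen these genes as DEGs in these samples.

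The conjugates were then compared directly at the same dose and time, which does not involve the control libraries. The treated libraries are still those in which the study chose its auxin DEGs, so counts over auxin genes are not independent of that choice. The acid part differs, with a longer side chain in the order IAA, IPA and IBA. Between IPA-Ala and IAA-Ala, edgeR called 0 of 26762 genes at 0.01 and 626 (2.34%) at 0.05, 6076 (22.7%) had an unadjusted p below 0.05, and DESeq2 called 875. Between IPA-Ala and IBA-Ala, edgeR called 0 of 26940 genes at 0.01 and 0 at 0.05, 2146 (7.97%) had an unadjusted p below 0.05, and DESeq2 called 91. The levels below are on the scale of all 8 libraries.

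Between IPA-Ala and IAA-Ala, 33 auxin genes were tested and 9 (27.3%, near the 22.7% of all genes) had an unadjusted p below 0.05, 3 with higher and 6 with lower values after IPA-Ala. The *SAUR*-like gene BraA01g003520.3C had 2.56 and 2.86 CPM after IPA-Ala and 0.379 and 0.161 CPM after IAA-Ala. It was the one with an adjusted p below 0.05 (log2 difference 3.29, SE 0.62, edgeR adjusted p = 0.0428). Its level after IAA-Ala was too low for the filter on low counts, so it entered the test through its IPA-Ala libraries. This difference is therefore no independent support. *YDK1* had 4.6 and 29.1 CPM after IPA-Ala and 135 and 104 CPM after IAA-Ala (log2 difference -2.83, SE 0.62, edgeR adjusted p = 0.055). *GH3.3* had 22.3 and 83.2 CPM against 174 and 262 CPM (log2 difference -2.05, SE 0.51, edgeR adjusted p = 0.0687). Neither of these auxin-amido synthetases passed the threshold.

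*IAA29* had 4.19 and 7.8 CPM after IPA-Ala and 24.2 and 12.8 CPM after IAA-Ala (log2 difference -1.63, SE 0.38, edgeR adjusted p = 0.0618). The *SAUR*-like gene BraA01g003500.3C had 15.5 and 23.9 CPM against 11 and 6.23 CPM (log2 difference 1.19, SE 0.32, edgeR adjusted p = 0.0835). Neither difference passed the threshold. For *IAA2* the difference was -0.28 (95% interval -0.81 to 0.24), for *YUC3* 0.15 (-0.61 to 0.91) and for *EIR1* -0.29 (-0.75 to 0.16).

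Between IPA-Ala and IBA-Ala, 7 of 32 auxin genes tested (21.9%, beside 7.97% of all genes) had an unadjusted p below 0.05, all with lower values after IPA-Ala, and none an adjusted p below 0.05. *UGT74E2* had 11.2 and 17.4 CPM after IPA-Ala and 39.4 and 27.3 CPM after IBA-Ala (log2 difference -1.22, SE 0.28, edgeR adjusted p = 0.451). *IAA29*, *GH3.3*, *UGT1*, *GH3.6*, *IAA2* and *EIR1* had log2 differences of -1.38, -1.41, -1.63, -0.82, -0.66 and -0.53. The study had chosen *UGT74E2*, *IAA29*, *GH3.3*, *IAA2* and *EIR1* as DEGs in these samples, *UGT74E2* and *EIR1* after IBA-Ala only. *UGT1* and *GH3.6* were not chosen in this way. The share of 21.9% and the common direction may thus follow from that choice and are no separate evidence of a difference. *YUC3* (0.05, 95% interval -0.7 to 0.79) and the *SAUR*-like gene BraA01g003520.3C (-0.08, 95% interval -1.51 to 1.34) had differences near 0, the latter with a wide interval.

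**Figure D4:**
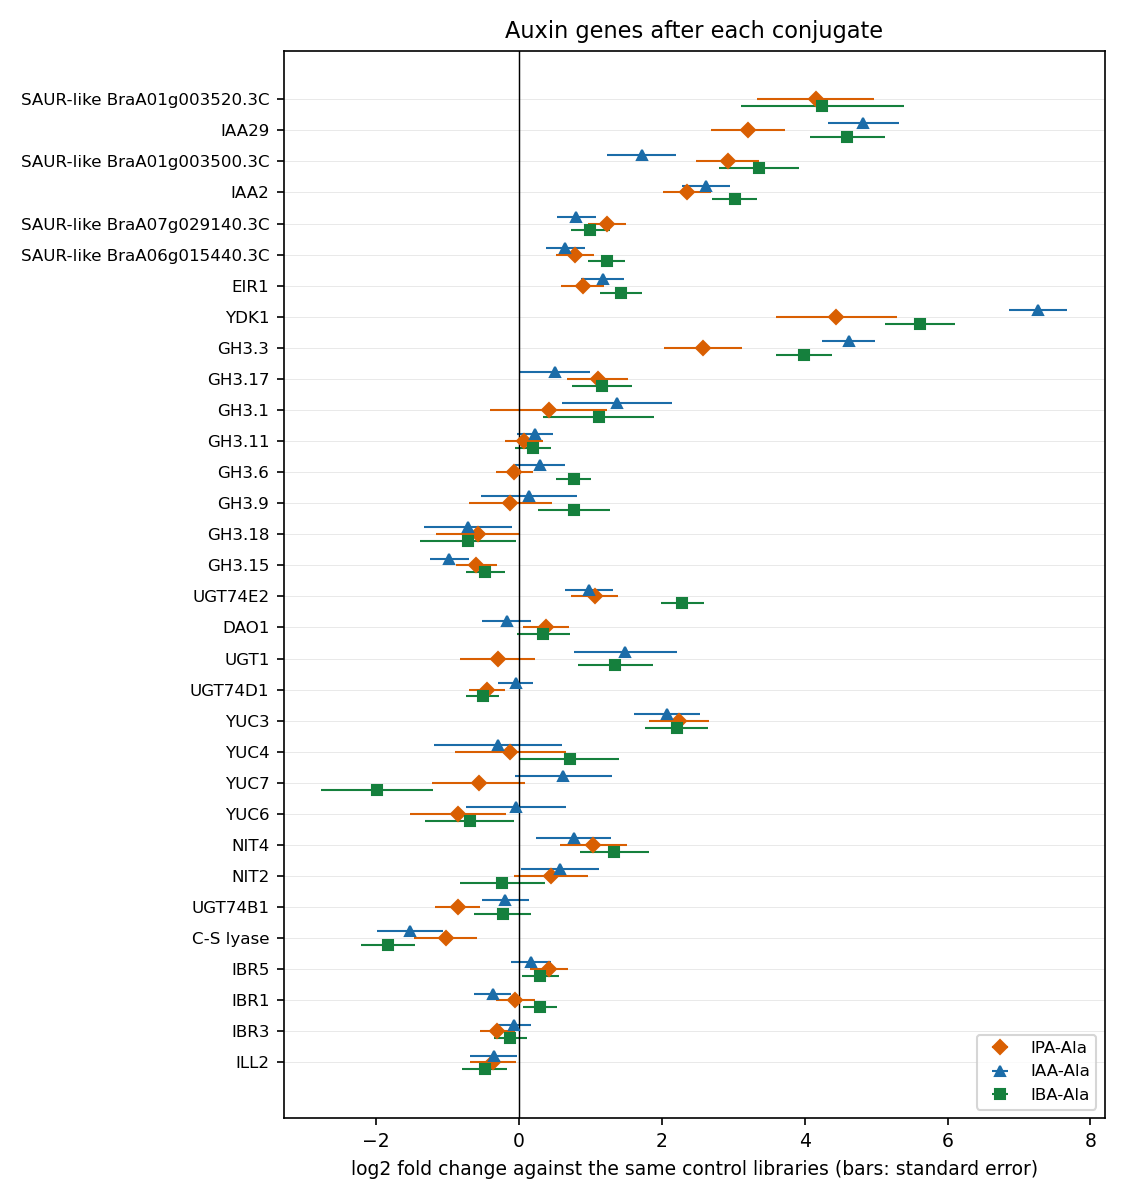
Log2 fold change of each auxin gene against the same 2 control libraries after IPA-Ala, IAA-Ala and IBA-Ala (symbols by conjugate), which makes the 3 values of a gene dependent on each other. *YDK1* has 4.45, 7.27 and 5.61, and the *SAUR*-like gene BraA01g003520.3C has no value for IAA-Ala, where it did not pass the filter on low counts.

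Against the control, which all 3 treatments share, the log2 fold change of *YDK1* was 4.45 after IPA-Ala, 7.27 after IAA-Ala and 5.61 after IBA-Ala. *GH3.3* had 2.57, 4.62 and 3.99, *IAA29* 3.21, 4.82 and 4.6, and *IAA2* 2.35, 2.62 and 3.02 in the same order. *YUC3* had 2.24, 2.08 and 2.21, the closest values among these genes. Because the 3 comparisons use the same control libraries, their likeness was not tested.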

How the data were processed

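Per the labels and the study's methods, libraries were made with the Lexogen SENSE kit, the first 9 bases of the single reads of about 50 bp were clipped, and reads were aligned with STAR 2.7.1a to the Chiifu V3.0 genome and counted by reverse strand with HTSeq 1.99.2; the submitters' processing notes also name DESeq2 1.34.0 and R 4.2.0. The deposited values are raw counts per gene, which the authors did not normalize. Summary lines that name no gene (26.05% to 28.13% of the reads in the 4 libraries) were left out. Tables named as normalized by the authors were not used. Of 46250 identifiers, 0 matched the reference table of 51589 genes (assembly CAAS_Brap_v3.01), so that names, positions and sequences are not given.

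The 2 IPA-Ala and 2 control libraries were compared with R 4.3.3 and edgeR 4.0.16: filterByExpr (minimum count 10, minimum total 15; 26827 genes tested), TMM, estimateDisp and the quasi-likelihood test, with Benjamini-Hochberg adjustment over all genes tested and a threshold of 0.01. The direct comparisons of IPA-Ala with IAA-Ala and IBA-Ala were fitted likewise. The prior count for fold changes was 0.125. Standard errors are the absolute log2 fold change divided by the square root of the F statistic. CPM values are on the TMM scale of the 4 libraries. Intervals for counts are exact (Clopper-Pearson on the share of counts, 95%) and cover counting error only. The scripts were tested on simulated data. Figures were drawn with Python 3.11.15, pandas 2.3.3 and matplotlib 3.10.9.

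Named genes are the 42 with an identifier in the study's displays of auxin genes and, among DEGs, the 2 with the largest rise and the 2 with the largest fall. Members and lists were chosen with earlier results of these data known. Alternatives were DESeq2 1.42.0, RLE or no scaling, no filter, 10 counts in every library, all 8 libraries, a replicate block, the edgeR 3 form, a likelihood ratio test, thinned counts, an adjusted p of 0.05, a log2 fold change of 1 and each library left out.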

Additional observations from a re-analysis of the deposited data

Results flagged for a closer look

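*GH3.6* (BraA02g013860.3C), an auxin-amido synthetase in *Arabidopsis*, was flagged for the difference between IPA-Ala and IBA-Ala. Both IBA-Ala libraries lay above the controls and neither IPA-Ala library did. How many of all genes have this pattern was not counted. The IPA-Ala and control libraries alone did not overlap in 37% of all genes tested. On the scale of all 8 libraries it had 29.4 and 32.6 CPM after IBA-Ala, 16.9 and 18.1 CPM after IPA-Ala and 18.2 CPM in both controls. The log2 difference of IPA-Ala to IBA-Ala was -0.819 (SE 0.18, unadjusted p = 0.00235), and it did not pass the adjustment over all genes (edgeR adjusted p = 0.451). Both IPA-Ala libraries lay just below the controls, with a log2 fold change of -0.06 (95% interval -0.64 to 0.52). After IAA-Ala the replicates had 14.6 and 30.5 CPM, on both sides of the controls.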

How the results depend on the processing

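The DEGs of IPA-Ala against the control numbered 131. They numbered 416 with DESeq2, 521 with a likelihood ratio test, 336 at an adjusted p below 0.05, 81 without the filter and 15 with all 8 libraries in one fit, and between 86 and 251 with single libraries left out. With RLE scaling, library size alone, 10 counts in every library, the edgeR 3 form, thinned counts or a log2 fold change of at least 1, they numbered between 89 and 131. The replicate numbers are shared by the groups, and whether they pair the libraries is not known. The replicate differences of control and IPA-Ala correlated at -0.177 over 26827 genes, and the main fit assumed no pairing. With the replicate block there were 344 DEGs, which include all 131. With crossed numbers, an alternative chosen after seeing the data, there were 666. For IPA-Ala against IAA-Ala, 0 became 875 with DESeq2, 626 at an adjusted p below 0.05 and between 0 and 27 with single libraries left out (27 without IAA-Ala replicate 2). For IPA-Ala against IBA-Ala, 0 became 91 with DESeq2 and remained 0 in the other fits, the replicate block included. The share of higher among called genes stayed between 83.7% and 97.7% for IPA-Ala against the control. The cause of these shifts was not tested.

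*IAA2* kept an adjusted p below 0.01 in 8 of 14 alternatives (4.02e-08 to 0.0507). The auxin genes called ranged from 0 to 8 by setting. The number was 0 with all 8 libraries in one fit, where 15 of 27948 genes were called. It was 8 with the likelihood ratio test, where 521 of 26827 genes were called. All auxin genes called in any setting were among those the study chose as DEGs in these samples. The log2 fold change reversed its sign in *YUC4* with thinned counts (0.058), and with single libraries left out in *YUC4* (-0.495 to 0.234), *GH3.1* (-0.47 to 2.56), *GH3.9* (-0.497 to 0.195), *GH3.11* (-0.14 to 0.26), *GH3.18* (-1.19 to 0.45), *UGT1* (-0.76 to 0.057) and *IBR1* (-0.32 to 0.19). Some genes with a library below 10 counts have no value where 10 counts in every library were required. With 2 libraries a group, no outlier test was possible.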
